A study of Mus musculus with 12 samples.

Results

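Transcripts of 38 mouse genes of the lysosome and of autophagy were followed in primary cortical neurons that carried a long or a normal polyglutamine stretch of huntingtin. The genes were chosen by symbol, and all 38 matched an Ensembl gene among the 41388 genes counted. By role they fall into 9 hydrolases, 3 soluble proteins of the lysosomal lumen, 5 lysosomal membrane proteins, 4 subunits of the proton pump, the transcription factor genes Tfeb and Tfe3, 2 cargo receptors, 5 genes of the LC3 and GABARAP families and 8 genes of the core autophagy machinery. All 38 passed the filter on low counts, so no member is missing from the tests.

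The neurons came from Swiss Webster mouse embryos at embryonic day 16, received lentivirus at 5 days in vitro and were harvested at 10 days in vitro. Total RNA was depleted of ribosomal RNA (Ribo-Zero) and sequenced, with 1 library per sample. There were 3 groups of 4 libraries, all of which carried a lentivirus: the control vector, the Htt exon 1 fragment at 25 glutamines (Htt-25Q, labelled wild type) and the same fragment at 72 glutamines (Htt-72Q, labelled mutant). The label for the virus is worded differently for control vector 2 than for the other 3 controls, and its title placed it in the group. Only a fragment of huntingtin was expressed, and the sources used here do not give the vectors' promoter, the species of the exon or the share of infected cells. The description of each library starts with a number (22, 24, 26, 27_1 or 27), called the preparation below. The labels do not say what it stands for. Libraries of different groups with the same number deviated together (correlation of deviations from group means, r from 0.11 to 0.50). Pairs with unlike numbers ran from -0.52 to 0.46, so the name is not established by these values. Nothing in the labels states that the 4 libraries of a group came from separate cultures, so the p-values measure the spread between these libraries, part of which may be technical.

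Libraries held 12.4 M to 27.5 M counts (M for a factor of 1e6), and no pair of libraries was a duplicate. The 12 neuron markers examined summed to 5652 to 6248 CPM in control vector, 5208 to 5785 CPM in Htt-25Q and 3877 to 4087 CPM in Htt-72Q (CPM, counts scaled to library size, here with TMM factors), and 8 of the 12 fell in Htt-72Q against control vector. Markers of microglia, cells rich in lysosomes, were near 0: the 14 of them summed to 5.77 to 15.0 CPM in control vector, 10.0 to 14.6 CPM in Htt-25Q and 10.8 to 26.6 CPM in Htt-72Q. Tmem119 had no count in control vector and Htt-25Q, Tyrobp had none in Htt-72Q, and the 2 microglial genes that passed the filter (Aif1 and Cd68) were not called. Astrocyte markers, 8 genes, summed to 2695 to 3176 CPM, 2423 to 3086 CPM and 2505 to 2916 CPM in the same order, and none of them was called against control vector. In bulk RNA, fewer cells of a type and less RNA per cell cannot be told apart, and the part of the lower neuronal markers in the results below was not tested. The mouse gene Htt, which the constructs name, stood at 89.2 to 235 CPM in control vector, 124 to 182 CPM in Htt-25Q and 128 to 213 CPM in Htt-72Q, and these ranges overlap.

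Lysosomes are acidic compartments in which hydrolases break down proteins, lipids and sugars. A vacuolar proton pump keeps the lumen acidic, and highly glycosylated membrane proteins line the inner face. In autophagy, a membrane grows around cytoplasmic cargo, is decorated with LC3 and GABARAP proteins bound to lipid, takes up cargo through receptors such as p62 (Sqstm1), and fuses with the lysosome. Neurons do not divide and rely on this route to clear protein aggregates, and mutations of several of the genes below cause lysosomal storage disease with loss of neurons. The transcription factors TFEB and TFE3 activate many lysosomal and autophagy genes through a short E-box-containing motif known as the CLEAR element.

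Levels of different genes were compared on the deposited RPKM, which is per length. In control vector the saposin precursor gene Psap stood highest at 528 ± 48.1 RPKM (SD, n = 4), ahead of Gabarapl1 at 306 ± 70.1 RPKM and Lamp1 at 260.1 ± 35.8 RPKM, and the last pair does not differ beyond its spread. At the other end Tfeb, at 0.373 ± 0.124 RPKM, lay below its relative Tfe3 at 3.24 ± 0.456 RPKM. The median level over a role group was 152 RPKM for LC3 and GABARAP genes, 116 RPKM for the proton pump, 24.0 RPKM for the luminal proteins, 16.1 RPKM for membrane proteins, 15.7 RPKM for hydrolases and 12 RPKM for the autophagy core. Within the hydrolases the range was wide, from Galc at 3.34 ± 0.175 RPKM to Ctsd at 147 ± 27.6 RPKM. In Htt-72Q, Ctsd took place 4 among the 38 members at 288 ± 25.8 RPKM, up from place 7 in control vector, and Mcoln1 moved from place 22 to place 29.

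**Figure D1:**
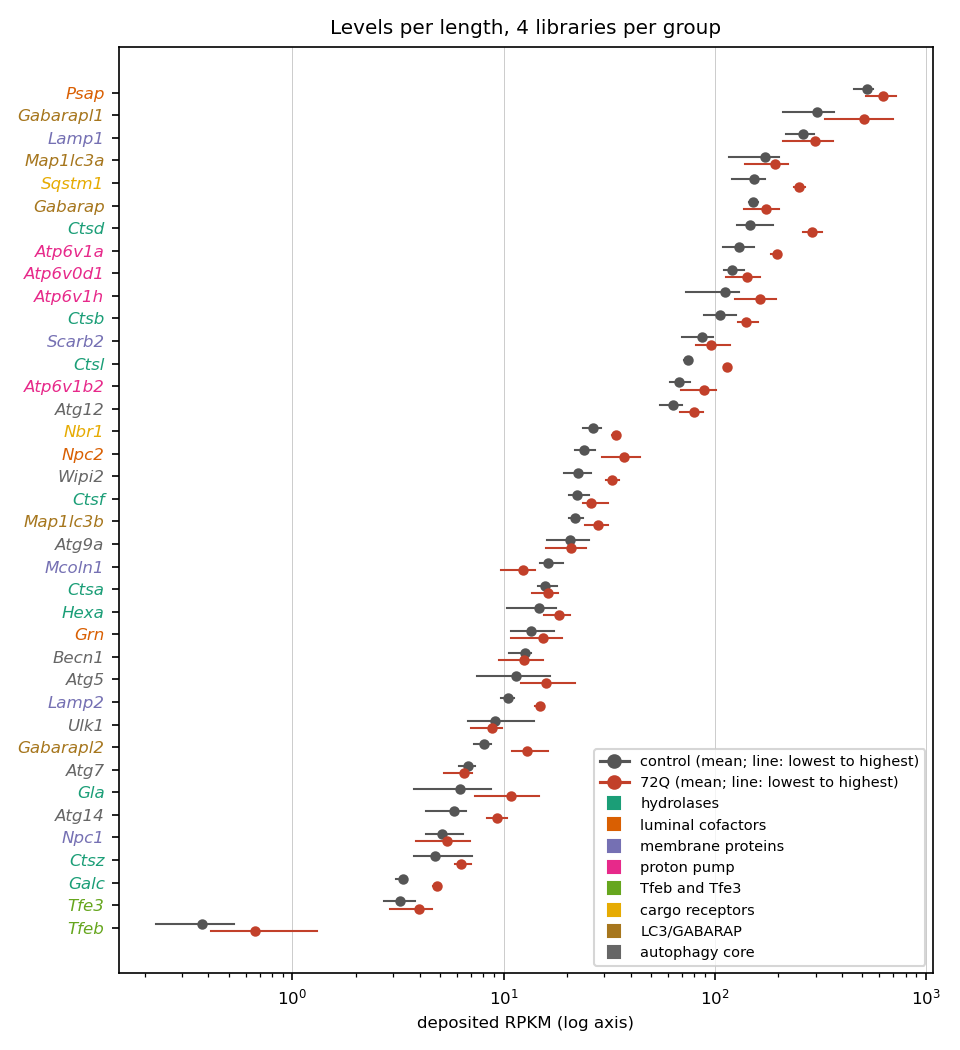
Mean deposited RPKM of the 38 members on a log axis in control vector (grey) and Htt-72Q (red), ordered by the level in control vector, with lines from the lowest to the highest of 4 libraries and gene names coloured by role. Psap is at the top with 528 RPKM and Tfeb at the bottom with 0.373 RPKM in control vector, and the red and grey lines lie apart for Ctsd, Ctsl, Lamp2, Galc and Sqstm1 among others.

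Against control vector, 12 members rose and 1 fell in Htt-72Q, out of 38 (31.6% higher). Over all 14707 genes tested, 23.2% were called, 9.44% higher and 13.7% lower, so the share of members that rose was above that of all genes and the share that fell (2.63%) was below it. This describes a list that was chosen with earlier results of these data known and is not independent evidence of its direction. A gene is called when its adjusted p in edgeR's quasi-likelihood test, fitted on all 12 libraries, is under 0.05. The median log2 fold change was 0.28 over the members and 0.03 over all genes, and 31 of 38 members had a positive value (52.4% of all genes). The ranges of the 4 Htt-72Q and 4 control libraries were apart for 11 members, 10 of them higher in Htt-72Q, against 23.7% of all genes with ranges apart and 10.1% apart and higher. By role, 4 of 9 hydrolases rose (median log2 fold change 0.33 over the group), as did 1 of 3 luminal proteins (0.16), 1 of 4 pump subunits (0.39), 1 of 2 cargo receptors (0.46), 2 of 5 LC3 and GABARAP genes (0.28) and 2 of 8 core genes (0.08). Of the 5 membrane proteins 1 rose and 1 fell (median 0.06), and neither Tfeb nor Tfe3 was called. Differences between the role groups were not tested. Without control vector 2, 8 members were called, and the calls over all genes went from 3411 to 2671. Upper-quartile scaling moved the balance over all genes from 1389 higher and 2022 lower to 1735 and 1778, and called 17 members, 16 of them higher.

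**Figure D2:**
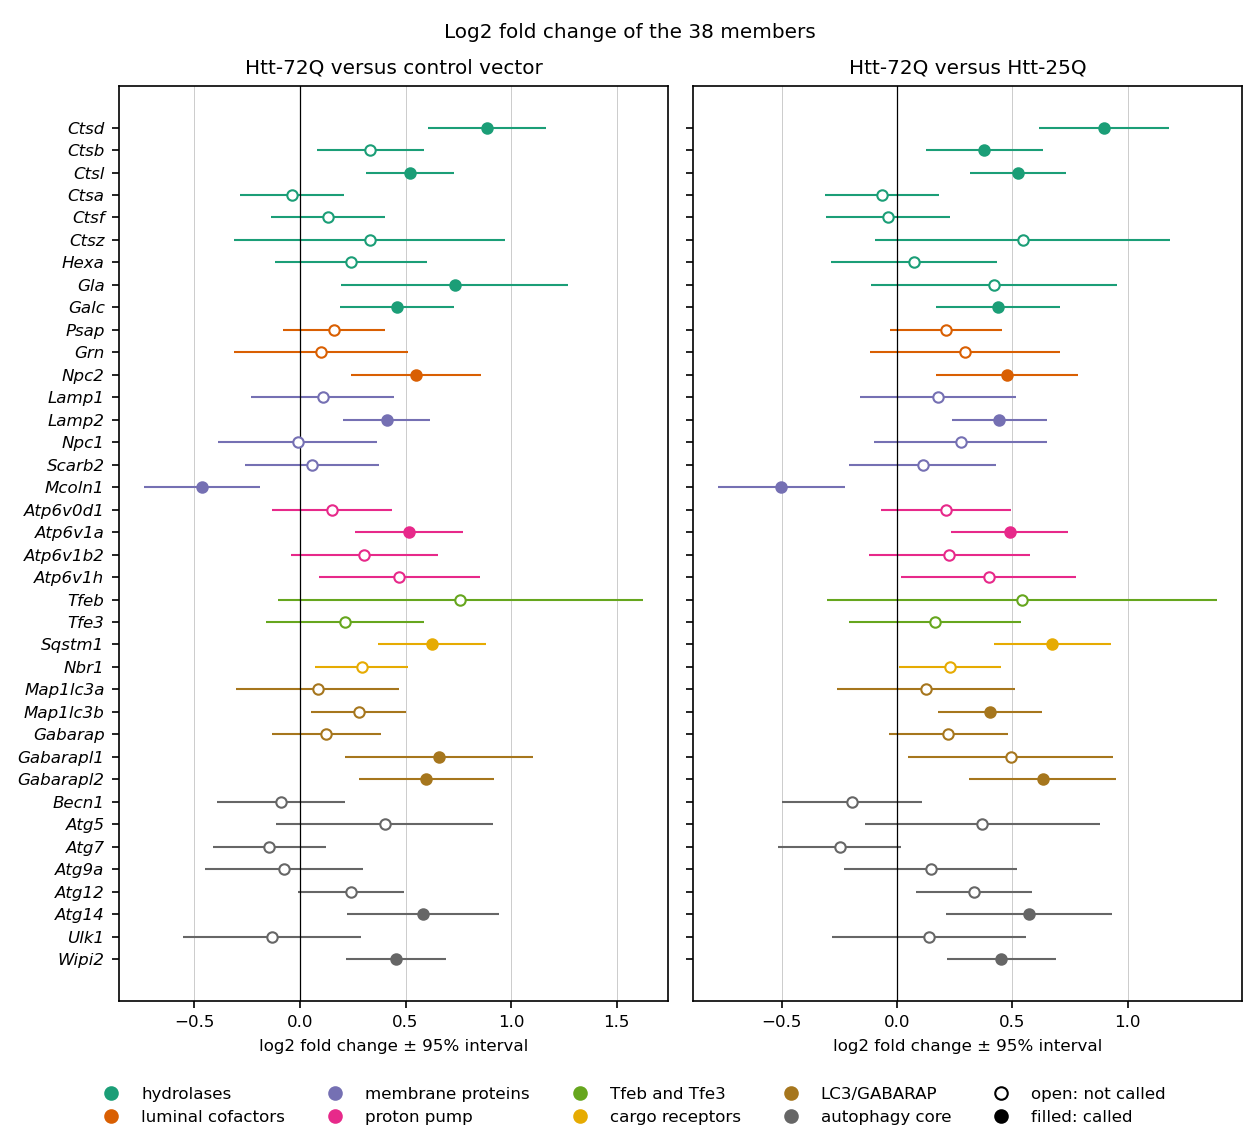
Log2 fold change with its 95% interval for each of the 38 members in Htt-72Q against control vector (left) and against Htt-25Q (right), coloured by role, with filled points for called genes. In both panels 12 filled points lie right of 0 and 1, Mcoln1, lies left of it, and the points of Ctsd at 0.89 and 0.90 are the farthest to the right among the filled ones.

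Sequence around the RefSeq starts of members that moved and of 1 that did not shows where the CLEAR-type letters TCACGTG and their E-box core CACGTG lie. Windows of 300 bases, from 250 before to 50 after each RefSeq start (GRCm38.p6), were found for 31 of the 38 members. TCACGTG, or its reverse complement CACGTGA, was present for 9 of 31 members (29.0%), against 6.80% of 11055 tested genes with a window and 4.29% of 27025 genes in the whole table. CACGTG alone was present for 12 of 31 (38.7%), against 11.6% and 8.09%. The 12 were Ctsd, Ctsl, Gla, Ctsa, Ctsf, Lamp1, Mcoln1, Atp6v1a, Atp6v0d1, Atg5, Atg7 and Atg14. Each match to TCACGTG also counts as one to CACGTG. The lines give 30 bases around each match for the called hydrolases, Atg14 and Mcoln1 (23 bases for the Ctsd match at the window's edge), and longer stretches for Atp6v1a, a called pump subunit, and for Lamp1, the uncalled member with the most matches (4). They are RefSeq sequence on GRCm38.p6, 5′ to 3′ along the gene's strand, with capitals marking the matched letters. In the GENCODE M21 annotation, exons cover all 30 bases printed for the second Ctsd line (position -98 from the start), both Gla matches, the Atg14 match and the second Mcoln1 line (-45), so these lie inside annotated transcripts. Exons cover 15 of the bases for Ctsl and 9 for the first Mcoln1 line (-71), and none for the other lines. The Atp6v1a stretch was cut to bases that no exon covers, so this was fixed by the choice. It lies within the span of the counted Atp6v1a gene (44085402 to 44139705). The counted Lamp1 gene starts at 13159135, inside the Lamp1 stretch.
Ctsd (chr7:142388055-142388077, minus strand): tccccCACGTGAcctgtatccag
Ctsd (chr7:142387908-142387937, minus strand): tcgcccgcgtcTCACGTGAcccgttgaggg
Ctsl (chr13:64370739-64370768, minus strand): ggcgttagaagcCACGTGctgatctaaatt
Gla (chrX:134601215-134601244, minus strand): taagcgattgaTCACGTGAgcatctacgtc
Gla (chrX:134601182-134601211, minus strand): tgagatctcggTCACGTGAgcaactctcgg
Atg14 (chr14:47568418-47568447, minus strand): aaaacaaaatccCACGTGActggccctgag
Mcoln1 (chr8:3500436-3500465, plus strand): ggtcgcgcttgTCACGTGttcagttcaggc
Mcoln1 (chr8:3500462-3500491, plus strand): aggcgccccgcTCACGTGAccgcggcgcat
Atp6v1a (chr16:44139306-44139461, minus strand): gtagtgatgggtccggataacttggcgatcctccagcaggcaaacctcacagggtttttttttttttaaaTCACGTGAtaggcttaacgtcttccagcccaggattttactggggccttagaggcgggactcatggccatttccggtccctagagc
Lamp1 (chr8:13158911-13159160, plus strand): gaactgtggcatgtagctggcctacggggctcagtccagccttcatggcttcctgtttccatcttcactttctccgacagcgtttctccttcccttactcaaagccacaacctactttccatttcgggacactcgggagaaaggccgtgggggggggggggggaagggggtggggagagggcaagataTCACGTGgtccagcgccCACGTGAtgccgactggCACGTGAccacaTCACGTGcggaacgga

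Of the 9 members with TCACGTG, 4 rose in Htt-72Q (Ctsd, Gla, Atp6v1a and Atg14), 1 fell (Mcoln1) and 4 were not called, with a median log2 fold change of 0.15. Of the 22 members whose window lacks it, 8 rose and none fell, with a median of 0.31. Among those 8 were Sqstm1, Lamp2, Wipi2, Gabarapl1 and Gabarapl2, whose windows hold no CACGTG either. Over all genes tested, 9.44% were called higher and 13.7% lower in Htt-72Q against control vector. The shares among all genes with or without the motif were not computed, and this split of the members was not tested. A match is a description of the letters and not of binding, and its absence says only that the letters are not in this window.

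**Figure D3:**
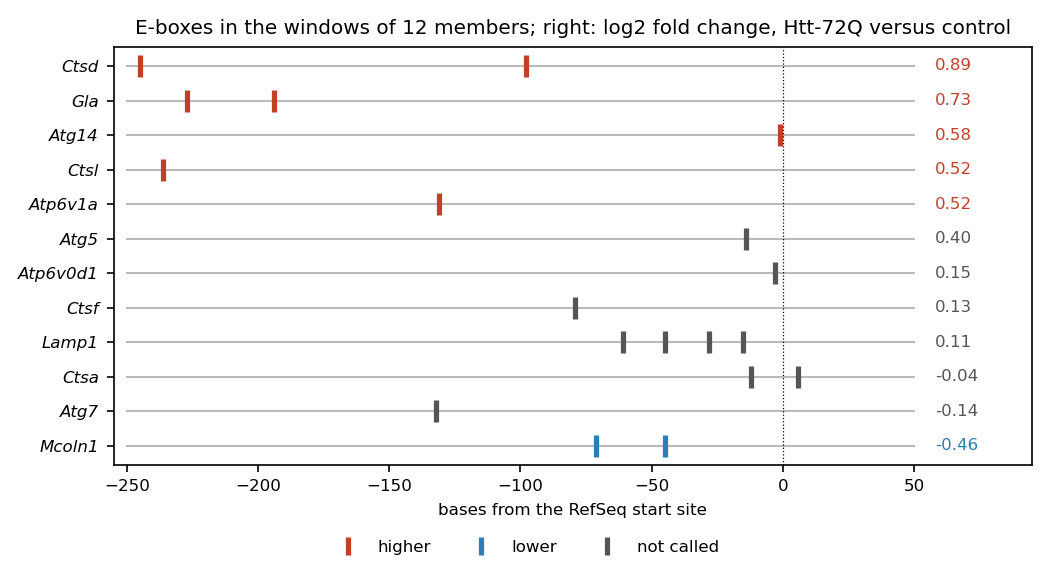
Position of each CACGTG match, in bases from the RefSeq start, in the windows of the 12 members that have one, ordered by log2 fold change in Htt-72Q against control vector (printed at the right) and coloured by call. Lamp1 has 4 matches between positions -61 and -15 and a log2 fold change of 0.11, and Mcoln1 has matches at -71 and -45 and a log2 fold change of -0.46.

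Cathepsin D (Ctsd), the main aspartic protease of the lysosome, had the largest rise of any called member against control vector. Ctsd (ENSMUSG00000007891, GRCm38 chromosome 7, 142371148 to 142388038, minus strand) stood at 329, 353, 352 and 481 CPM in control vector 1 to 4 and at 339.9, 357, 425 and 381 CPM in Htt-25Q 1 to 4. In Htt-72Q 1 to 4 it stood at 660.4, 768, 654 and 717 CPM. All 4 Htt-72Q libraries were above the highest of the other 8, and control vector 4 stood apart from the other controls. The log2 fold change over the controls was 0.89 ± 0.13 (SE; adjusted p = 0.000242 in edgeR's quasi-likelihood test) and 0.90 ± 0.13 against Htt-25Q (adjusted p = 0.000218). Of its exon bases, 6.47% are shared with Ifitm10 on the same strand. Over 38.03% of the Ctsd transcript, 1 other gene is at least 95% identical to it. No count was found for that gene, which would also hold if it were missing from the deposited counts. The counting of reads that fit several genes is not stated, so the level of Ctsd may be uncertain.

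Cathepsin L (Ctsl), a cysteine protease of the lysosome, also rose. Ctsl (ENSMUSG00000021477, chromosome 13, 64363214 to 64370306, minus strand) stood at 145, 150.5, 152 and 157 CPM in control vector, 163, 134, 156 and 149 CPM in Htt-25Q and 208, 212, 229 and 218 CPM in Htt-72Q. Again the 4 Htt-72Q libraries lay above the other 8. The log2 fold change was 0.52 ± 0.10 against control vector (adjusted p = 0.00151, edgeR) and 0.53 ± 0.10 against Htt-25Q (adjusted p = 0.00142). Over 31.6% of the Ctsl transcript, stretches of 31 other genes are at least 95% identical to it, and those genes held 243931 counts in all libraries against 37835 for Ctsl. How reads that fit several genes were counted is not stated, so the level of Ctsl may be uncertain. The transcript compared has 6168 bases and the counted exons 1971. Whether the near-identical stretches lie in the counted bases was not examined. Cathepsin B (Ctsb, ENSMUSG00000021939, chromosome 14, 63122462 to 63145919, plus strand), another cysteine protease, stood at 432, 524, 490.3 and 605 CPM in control vector, 465, 476, 534 and 512 CPM in Htt-25Q and 656, 724, 604 and 599 CPM in Htt-72Q. Its Htt-72Q libraries were above all Htt-25Q libraries but overlapped with control vector 4. Ctsb rose against Htt-25Q (log2 fold change 0.38 ± 0.12, adjusted p = 0.0325, edgeR), while the value against control vector was 0.33 ± 0.12 (adjusted p = 0.0552; 0.0406 with the preparation as a block). Its call against Htt-25Q was lost in edgeR without Htt-25Q 1, 2 or 4 (adjusted p = 0.0861, 0.0858 and 0.0694) or without Htt-72Q 1 or 2 (0.0658 and 0.107), and with the library class as a term (0.0827). For Ctsb, 16.2% of exon bases overlap Fdft1 on the opposite strand.

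The lipid hydrolases Gla (alpha-galactosidase A, deficient in Fabry disease) and Galc (galactosylceramidase, deficient in Krabbe disease) were both called against control vector. Galc (ENSMUSG00000021003, chromosome 12, 98202304 to 98259459, minus strand) stood at 13.2, 13.4, 12.3 and 13.3 CPM in control vector, 14.4, 12.8, 12.6 and 13.2 CPM in Htt-25Q and 17.5, 16.7, 18.9 and 18.6 CPM in Htt-72Q, with the Htt-72Q libraries above the rest. Its log2 fold change was 0.46 ± 0.13 against control vector (adjusted p = 0.0168, edgeR) and 0.44 ± 0.13 against Htt-25Q (adjusted p = 0.022). Leaving out control vector 3 gave Galc an adjusted p of 0.0553 in edgeR, and with no filter on low counts it was 0.129. Against Htt-25Q the edgeR adjusted p of Galc passed 0.05 without Htt-25Q 2, 3 or 4 (0.0612, 0.0608 and 0.0676). It also did with the preparation as a block (0.0542 in edgeR), which gives Htt-25Q 4 a term of its own. That comparison then rests on the other Htt-25Q libraries. Gla (ENSMUSG00000031266, chromosome X, 134588149 to 134601125, minus strand) was more scattered, at 12.6, 18.4, 23.2 and 28.9 CPM in control vector, 21.6, 25, 26.3 and 30.0 CPM in Htt-25Q and 22.9, 28.6, 39.6 and 46.4 CPM in Htt-72Q, and the 3 groups overlap. The log2 fold change of Gla was 0.73 ± 0.25 against control vector (adjusted p = 0.048, edgeR) and 0.42 ± 0.25 against Htt-25Q (adjusted p = 0.255). The first call was lost in 12 of 20 alternatives, among them leaving out any library but control vector 4 or Htt-72Q 1, with adjusted p from 0.0566 to 0.137 in those, while edgeR with the replicate number as a block gave 0.00271.

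The other 4 hydrolases were not called in either comparison. Ctsa (cathepsin A, a carboxypeptidase that protects other hydrolases) had a log2 fold change of -0.04 (95% interval -0.29 to 0.21) against control vector, and Ctsf 0.13 (-0.14 to 0.40). Hexa, the alpha subunit of hexosaminidase A and the gene of Tay-Sachs disease, had 0.24 (-0.12 to 0.60), and Ctsz, the lowest cathepsin at 7.01 ± 2.31 CPM in control vector (SD, n = 4), had 0.33 (-0.31 to 0.97). The edgeR intervals of Hexa and Ctsz include values as large as that of Ctsl, and those of Ctsa and Ctsf do not. Ctsa shares 17.4% of its exon bases with genes on the opposite strand.

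**Figure D4:**
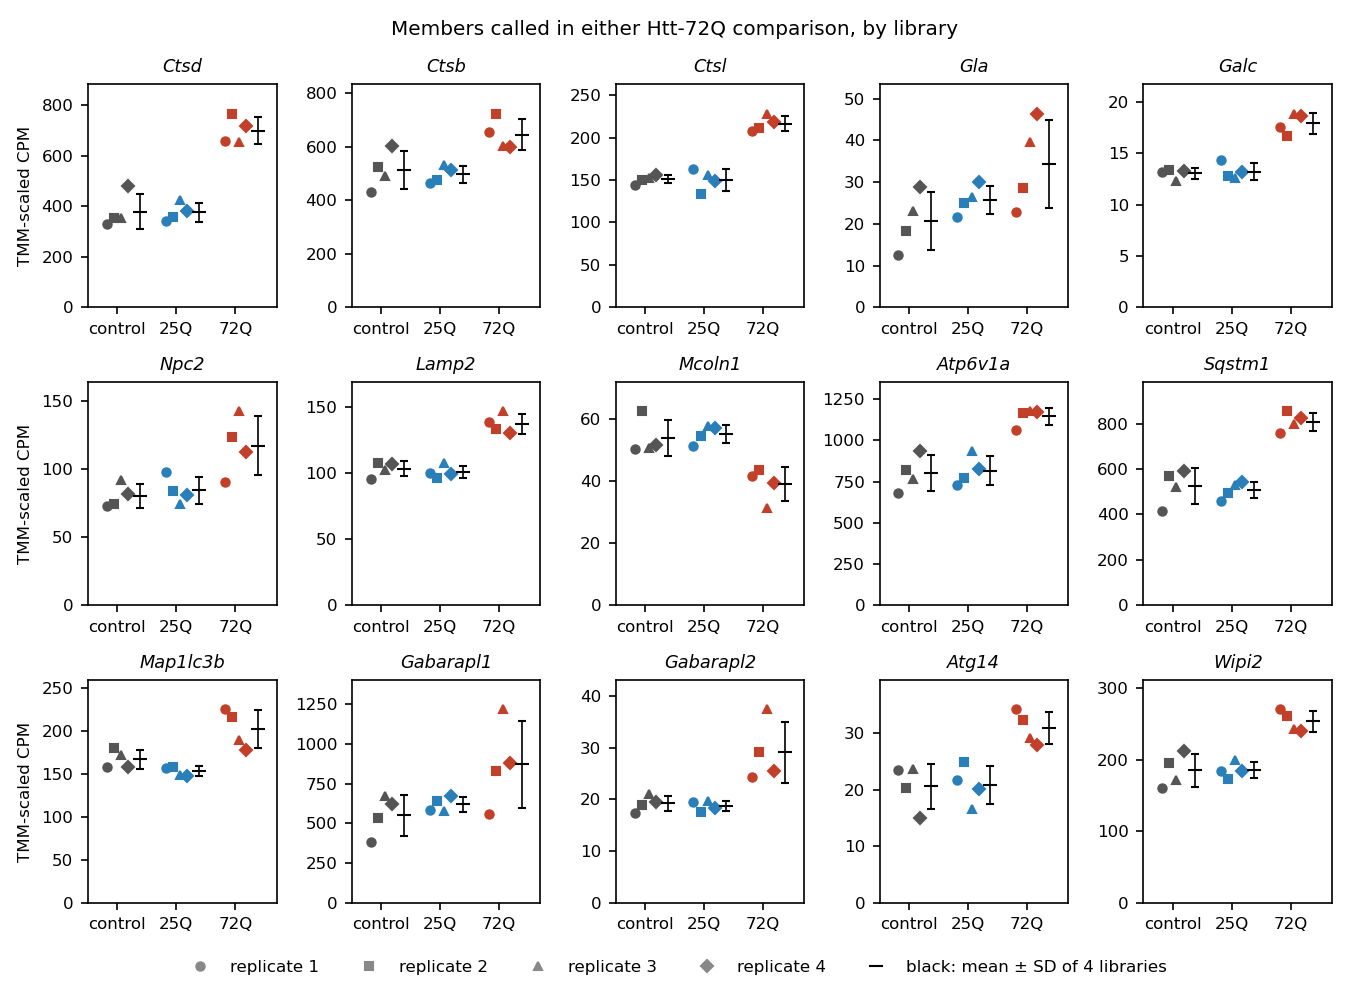
TMM-scaled CPM of the 15 members called in either Htt-72Q comparison, each point 1 library (shape: replicate number), with the mean ± SD of 4 libraries in black. The Htt-72Q points of Ctsd, Ctsl, Galc, Lamp2, Atp6v1a, Sqstm1, Gabarapl2, Atg14 and Wipi2 lie above all other points, those of Mcoln1 lie below, and those of Gla, Npc2, Gabarapl1, Ctsb and Map1lc3b overlap with at least 1 other group.

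Of the luminal proteins that assist the hydrolases, Npc2 rose. NPC2 carries cholesterol inside the lysosome and hands it to NPC1 in the membrane. Npc2 (ENSMUSG00000021242, chromosome 12, 84754560 to 84773112, minus strand) stood at 72.7, 74.0, 92.1 and 82.0 CPM in control vector, 98.0, 83.8, 74.1 and 81.1 CPM in Htt-25Q and 90.8, 124, 142 and 112 CPM in Htt-72Q. The lowest Htt-72Q library overlaps with both other groups. Its log2 fold change was 0.55 ± 0.14 against control vector (adjusted p = 0.013, edgeR) and 0.48 ± 0.14 against Htt-25Q (adjusted p = 0.0282). Npc2 had a first adjusted p of 0.0508 in edgeR once control vector 2 was left out. The second passed 0.05 in edgeR without Htt-25Q 2, 3 or 4 (0.064, 0.0841 and 0.083) and without Htt-72Q 2 or 3 (0.0741 and 0.0846). With the preparation as a block it was 0.101 (edgeR), in a fit where Htt-25Q 4 adds nothing to the group differences. Psap, the precursor of the saposins that present lipids to hydrolases and the most abundant member, stood at 1528, 1516, 1306 and 1570.5 CPM in control vector, 1363, 1306, 1567 and 1486 CPM in Htt-25Q and 1668, 1874, 1411 and 1674 CPM in Htt-72Q. These ranges overlap, and Psap was not called (log2 fold change 0.16, 95% interval -0.08 to 0.40, against control vector). Nor was Grn, the gene of progranulin (0.10, -0.31 to 0.51).

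The membrane proteins moved in different directions. LAMP2 and LAMP1 coat the inner face of the lysosomal membrane, and LAMP2 also serves in chaperone-mediated autophagy. Lamp2 (ENSMUSG00000016534, chromosome X, 38401357 to 38456454, minus strand) stood at 95.1, 108, 102 and 107 CPM in control vector, 100.1, 96.2, 107 and 99.1 CPM in Htt-25Q and 138, 133, 147 and 130.0 CPM in Htt-72Q, with all Htt-72Q libraries above the rest. It rose by a log2 fold change of 0.41 ± 0.10 against control vector (adjusted p = 0.00644, edgeR) and 0.44 ± 0.10 against Htt-25Q (adjusted p = 0.00406). Lamp1, the more abundant of the pair per length, was at 568, 646, 509 and 673 CPM in control vector, 548, 510.1, 667 and 556 CPM in Htt-25Q and 780.3, 746, 469 and 585 CPM in Htt-72Q. Its Htt-72Q libraries held both the highest and the lowest value of all 12, and the log2 fold change was 0.11 (95% interval -0.23 to 0.45, adjusted p = 0.671, edgeR) against control vector.

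Mcoln1, which encodes the lysosomal calcium channel TRPML1, was the only member called lower. Mcoln1 (ENSMUSG00000004567, chromosome 8, 3500457 to 3515232, plus strand) stood at 50.3, 62.5, 50.8 and 51.6 CPM in control vector, 51.5, 54.5, 57.8 and 57.2 CPM in Htt-25Q and 41.7, 43.7, 31.3 and 39.2 CPM in Htt-72Q. All Htt-72Q libraries lay below the other 8. The log2 fold change was -0.46 ± 0.13 against control vector (adjusted p = 0.0172, edgeR) and -0.50 ± 0.13 against Htt-25Q (adjusted p = 0.0116). Leaving out control vector 2, its highest library, gave -0.40 and an adjusted p of 0.0523 (edgeR) over the other controls. The Mcoln1 window, printed above, holds the motif TCACGTG in both of its matches, as does that of Ctsd, which rose. A part of the motif in either change was not tested. Npc1, the cholesterol exporter of the membrane (log2 fold change -0.01, 95% interval -0.39 to 0.36), and Scarb2, the receptor that carries glucocerebrosidase to lysosomes (0.06, -0.26 to 0.37), were not called.

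For the proton pump, subunit A of the ring that hydrolyses ATP rose. Atp6v1a (ENSMUSG00000052459, chromosome 16, 44085402 to 44139705, minus strand) stood at 678, 821, 766 and 938 CPM in control vector, 728, 774, 935 and 829 CPM in Htt-25Q and 1065, 1168, 1177 and 1173 CPM in Htt-72Q. The Htt-72Q libraries lay above all others and, apart from Htt-72Q 1, close together. The log2 fold change was 0.52 ± 0.12 against control vector (adjusted p = 0.00582, edgeR) and 0.49 ± 0.12 against Htt-25Q (adjusted p = 0.00862). The regulatory subunit gene Atp6v1h had 0.47 ± 0.18 against control vector (adjusted p = 0.0719), and with the replicate number as a block it was called at 0.48 (adjusted p = 0.0139, edgeR). Against Htt-25Q, Atp6v1h had 0.40 ± 0.18 (adjusted p = 0.131, edgeR, and 0.0457 with that block). The replicate block joins Htt-25Q 3 and 4 (preparations 27_1 and 27) to libraries of other preparations (26 and 27_1). Preparation 27 holds no other library, so with the preparation as a block Htt-25Q 4 adds nothing to the group differences. Atp6v1b2, whose product alternates with subunit A in that ring, had 0.31 (95% interval -0.04 to 0.65; called against Htt-25Q at 0.40 with the preparation as a block) and Atp6v0d1, of the membrane sector, 0.15 (-0.13 to 0.43). All 4 pump subunits had positive values, and 1 passed the test.

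The regulators Tfeb and Tfe3 were not called in any comparison. Tfe3, the more abundant per length, stood at 36.2, 28.5, 26.2 and 31.7 CPM in control vector, 26.9, 26.0, 37.6 and 36.4 CPM in Htt-25Q and 38.9, 35.6, 26.5 and 41.1 CPM in Htt-72Q, with overlapping ranges. Its log2 fold change was 0.21 (95% interval -0.16 to 0.59) against control vector. Tfeb stood at 1.32, 2.15, 2.12 and 3.05 CPM in control vector and at 2.30, 2.73, 7.33 and 2.27 CPM in Htt-72Q, where Htt-72Q 3 stands apart. Its log2 fold change of 0.76 (-0.11 to 1.62, adjusted p = 0.198, edgeR) was 0.19 without that library (adjusted p = 0.725). These factors are known to be controlled mainly by where the protein sits in the cell, which RNA levels do not show.

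Among cargo receptors, Sqstm1 had the second-smallest adjusted p of the members in Htt-72Q against Htt-25Q, after Ctsd. Its product p62 binds ubiquitin on cargo and LC3 on the growing membrane, and is itself degraded by autophagy. Sqstm1 (ENSMUSG00000015837, chromosome 11, 50199366 to 50210827, minus strand) stood at 415, 569.7, 519 and 592 CPM in control vector, 461, 494, 531 and 542 CPM in Htt-25Q and 759.5, 854, 797 and 823 CPM in Htt-72Q, with all Htt-72Q libraries above the rest. The log2 fold change was 0.63 ± 0.12 against control vector (adjusted p = 0.00167, edgeR) and 0.67 ± 0.12 against Htt-25Q (adjusted p = 0.000986). Of its exon bases, 17.3% overlap Mrnip on the opposite strand. Nbr1, a receptor with a similar domain layout, stood at 165 to 204 CPM in control vector, 170.4 to 209.5 CPM in Htt-25Q and 217 to 234 CPM in Htt-72Q. The Htt-72Q libraries were above the rest here too, but Nbr1 was not called in edgeR (log2 fold change 0.29 ± 0.10, adjusted p = 0.0561, against control vector and 0.23 ± 0.10, adjusted p = 0.13, against Htt-25Q). It was called in edgeR against control vector with the preparation as a block (adjusted p = 0.0367), and with the library class as a term against control vector (0.0177) and Htt-25Q (0.037).

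The proteins of the LC3 and GABARAP families are attached to lipid on the autophagosome. Gabarapl2 (ENSMUSG00000031950, chromosome 8, 111940703 to 111953612, plus strand) stood at 17.4, 19.0, 21 and 19.5 CPM in control vector, 19.6, 17.6, 19.6 and 18.3 CPM in Htt-25Q and 24.4, 29.2, 37.5 and 25.5 CPM in Htt-72Q, all Htt-72Q libraries above the rest. It rose by 0.60 ± 0.15 on the log2 scale against control vector (adjusted p = 0.00954, edgeR) and by 0.63 ± 0.15 against Htt-25Q (adjusted p = 0.00708). Over 20.9% of its transcript 3 other genes are at least 95% identical to it, and these together held 6 counts in all libraries. A gene missing from the deposited counts would add none to that sum. Gabarapl1 (ENSMUSG00000030161, chromosome 6, 129533200 to 129542331, plus strand), the most abundant of the families, stood at 380.2, 531, 676 and 622 CPM in control vector, 586, 644, 578 and 669.8 CPM in Htt-25Q and 558, 828, 1220.0 and 881 CPM in Htt-72Q. Its ranges overlap, since Htt-72Q 1 lies below 2 of the controls. Gabarapl1 was called against control vector (log2 fold change 0.66 ± 0.21, adjusted p = 0.0335, edgeR) and not against Htt-25Q (0.49 ± 0.21, adjusted p = 0.107). In edgeR the call was lost without control vector 1 or 2 (adjusted p = 0.0799 and 0.0848) and without Htt-72Q 2, 3 or 4 (0.0614, 0.121 and 0.0576). Without Htt-72Q 1, the value of Gabarapl1 against Htt-25Q was called at 0.65 (adjusted p = 0.0241, edgeR).

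Map1lc3b, the gene of the LC3B protein used to count autophagosomes, showed the reverse pattern of calls. Map1lc3b (ENSMUSG00000031812, chromosome 8, 121590361 to 121598760, plus strand) stood at 158, 179.6, 172 and 158 CPM in control vector, 157, 159, 148 and 148 CPM in Htt-25Q and 225, 217, 189.6 and 178 CPM in Htt-72Q. The lowest Htt-72Q library lies just under the highest control, and all 4 lie above Htt-25Q. Map1lc3b had a log2 fold change of 0.40 ± 0.11 against Htt-25Q (adjusted p = 0.0135, edgeR; 0.051 without Htt-25Q 4) and of 0.28 ± 0.11 against control vector (adjusted p = 0.0722; past the threshold in 3 of 20 alternatives). Over 19.4% of the Map1lc3b transcript (2532 bases, with 7517 exon bases counted), 63 other genes hold near-identical stretches. They held 543362 counts in all against 38222 for Map1lc3b. How reads that fit several genes were counted is not stated, so the level of Map1lc3b is uncertain to that extent. What separates these comparisons is Htt-25Q against control vector, in which neither Gabarapl1 (0.17) nor Map1lc3b (-0.13) passed (adjusted p = 1 each, edgeR). Map1lc3a (log2 fold change 0.08, 95% interval -0.30 to 0.47, against control vector) and Gabarap (0.13, -0.13 to 0.38) were not called.

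In the core machinery, 2 of 8 genes rose, Wipi2 and Atg14. WIPI2 binds the lipid phosphatidylinositol 3-phosphate on the growing membrane, and ATG14 directs the lipid kinase complex that makes it. Wipi2 (ENSMUSG00000029578, chromosome 5, 142629542 to 142670588, plus strand) stood at 161, 196, 172 and 212 CPM in control vector, 184, 173, 199.8 and 185 CPM in Htt-25Q and 271, 261, 243 and 239.9 CPM in Htt-72Q, with the Htt-72Q libraries above the rest. Its log2 fold change was 0.45 ± 0.11 against control vector (adjusted p = 0.00827, edgeR) and 0.45 ± 0.11 against Htt-25Q (adjusted p = 0.00885). Atg14 (ENSMUSG00000037526, chromosome 14, 47540894 to 47568434, minus strand) stood at 23.5, 20.4, 23.6 and 15.0 CPM in control vector, 21.7, 24.9, 16.6 and 20.2 CPM in Htt-25Q and 34.3, 32.4, 29.2 and 28.0 CPM in Htt-72Q, again above the rest. Its log2 fold change was 0.58 ± 0.17 against control vector (adjusted p = 0.0218, edgeR) and 0.57 ± 0.17 against Htt-25Q (adjusted p = 0.0251). In edgeR, Atg14 lost its first call without control vector 2 or 4 (adjusted p = 0.0656 and 0.06) or without Htt-72Q 1 or 2 (0.0641 and 0.0643). It lost its second without Htt-25Q 3 or 4 (0.0801 and 0.0748) or without Htt-72Q 1 or 2 (0.0665 and 0.066).

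The other 6 core genes were not called. Atg12, the ubiquitin-like conjugation partner of ATG5, stood at 141, 171, 181 and 156 CPM in control vector, 149.9, 167, 141 and 149.9 CPM in Htt-25Q and 185, 199, 218 and 165 CPM in Htt-72Q, with overlapping ranges. Atg12 had a log2 fold change of 0.24 ± 0.12 against control vector (adjusted p = 0.158, edgeR) and 0.33 ± 0.12 against Htt-25Q (adjusted p = 0.055), where it passed the threshold in 8 of 20 alternatives. Near-identical stretches of 8 other genes cover 3.44% of its transcript, which has 4765 bases against 2492 counted exon bases. Atg5 had 0.40 (95% interval -0.11 to 0.91; adjusted p = 0.0486 in edgeR with the preparation as a block) against control vector and 0.37 (-0.14 to 0.88) against Htt-25Q. The kinase gene Ulk1 (-0.13, -0.55 to 0.29; 0.15 without control vector 1), the E1-like enzyme gene Atg7 (-0.14, -0.41 to 0.12), the lipid kinase partner Becn1 (-0.09, -0.39 to 0.21) and the membrane protein gene Atg9a (-0.07, -0.45 to 0.30) had negative values against control vector. Becn1 shares 43.9% of its exon bases with Cntd1 on the opposite strand, and Atg9a 31.8% with Gm29253 on the same strand, so part of their counts may belong to the neighbour.

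Htt-72Q against Htt-25Q, which asks about repeat length, shares its Htt-72Q libraries with the comparison above, so its calls are a second view of the same 4 libraries. Here too 12 members rose and 1 fell, where 22.5% of all genes were called, 9.07% higher and 13.4% lower. The median log2 fold change was 0.31 over the members and 0.03 over all genes, with 33 of 38 members positive (52.9% of all genes). Ranges were apart for 13 members, 12 of them higher, against 26.7% and 11.6% of all genes. By role the median was 0.42 for hydrolases, 0.30 for luminal proteins, 0.18 for membrane proteins, 0.31 for the pump, 0.45 for cargo receptors, 0.40 for LC3 and GABARAP genes and 0.24 for the core. Relative to the comparison with control vector, Ctsb and Map1lc3b were called in place of Gla and Gabarapl1. Without Htt-25Q 4, 8 members were called, and the calls over all genes went from 3308 to 2293.

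Htt-25Q against control vector, the effect of the normal-length exon, called no member and no gene in edgeR (0% of 14707). DESeq2 called none either, and 129 genes but no member had an unadjusted p under 0.05 in edgeR. The members' log2 fold changes ran from -0.29 (Npc1) to 0.31 (Gla), with 19 of 38 positive (49.5% of all genes). No member had ranges apart, against 0.993% of all genes. In the 3 shared preparations, 2 members were higher and 5 lower in each, beside 11.9% and 9.47% of all genes. For Ctsd the value was -0.01 (95% interval -0.29 to 0.27), for Sqstm1 -0.05 (-0.30 to 0.21) and for Lamp2 -0.03 (-0.24 to 0.17), so a rise as large as that in Htt-72Q lies outside these 3 intervals.

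Within single preparations, the 12 members called higher against control vector were higher in Htt-72Q in 4 of 4 preparations, and Mcoln1 was lower in 4 of 4, which the calls on the same libraries largely fix. Ctsd differed by 1.00, 1.12, 0.89 and 0.57 on the log2 scale in preparations 22, 24, 26 and 27_1, and Sqstm1 by 0.87, 0.58, 0.62 and 0.48. The median over the 38 members was 0.43, 0.31, 0.29 and 0.19 in the same order. In all, 22 of 38 members were higher in each of the 4 preparations, beside 22.7% of all genes, and 2, Mcoln1 and Atg7, were lower in each, beside 23.9%. Against Htt-25Q, 11 of the 12 members called higher were higher in all 3 shared preparations. The exception was Npc2, at -0.11 in preparation 22. Over all 38 members, 20 were higher and 3 lower in each of those 3, beside 25.7% and 26.8% of all genes. Each such value rests on 1 library per group and has no test of its own.

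**Figure D5:**
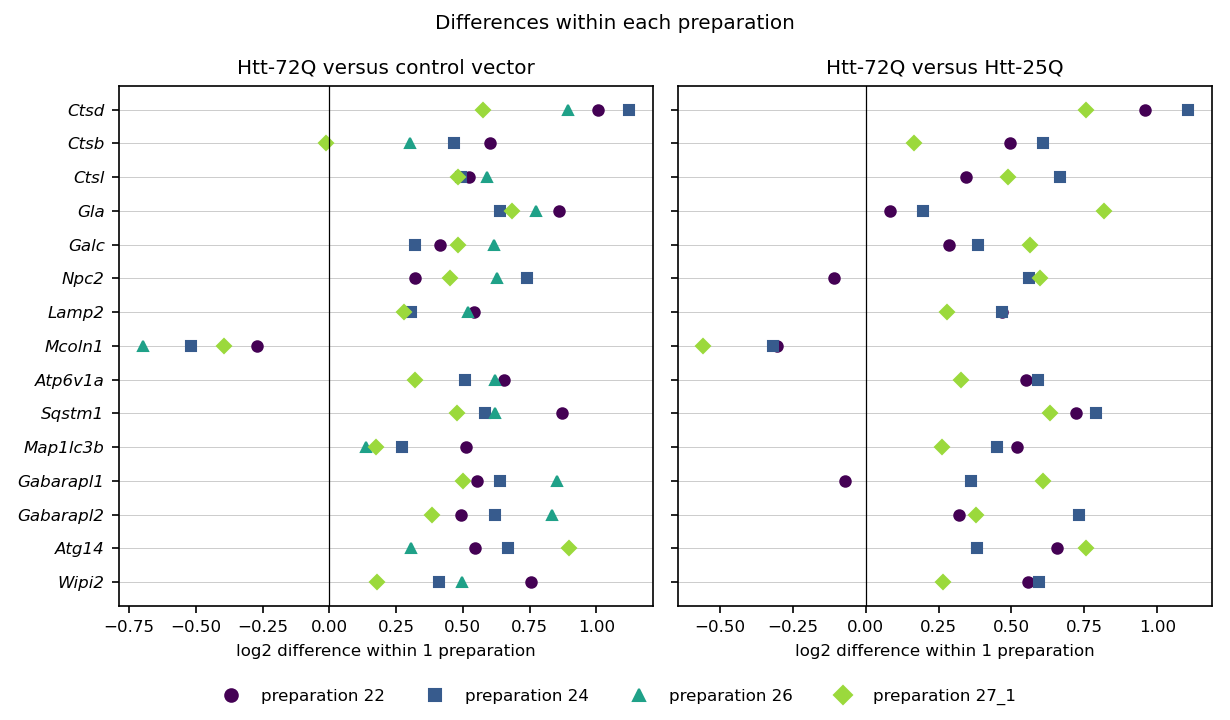
Log2 difference between the Htt-72Q library and the control vector (left) or Htt-25Q library (right) of the same preparation, for the 15 called members, with a symbol and colour per preparation. On the left the 4 points of each member called higher lie right of 0 and the points of Mcoln1 left of it, while on the right Npc2 and Gabarapl1 each have 1 point left of 0, in preparation 22, and all points of Mcoln1 are left of 0.

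Besides the groups, the libraries differ in the level of Ctnnd1, which is low in control vector 2 and 4, Htt-25Q 3 and Htt-72Q 1, 2 and 4. No label explains this class. It was cut from these same data at the largest gap in the log2 CPM (by library total) of this 1 gene. The low libraries had 3.83 to 4.14 and the others 4.64 to 4.98. The low libraries are unevenly spread over the groups, so the class is partly confounded with them. With the class as a term in edgeR, 3825 genes and 13 members were called against control vector, 12 of these members shared with the 13 above. Against Htt-25Q, 3337 genes and 14 members were called, again with 12 members shared. Lamp1 and Scarb2 were not called in either fit.

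The rest of the lysosomal and autophagy pathway comprised 130 listed genes, of which 125 were tested. Against control vector 15 rose and 9 fell (12% and 7.2%, beside 9.44% and 13.7% of all genes), with a median log2 fold change of 0.13. Their difference from the 38 members was not tested. Against Htt-25Q 19 rose and 8 fell (15.2% and 6.4%, beside 9.07% and 13.4% of all genes). In Htt-25Q against control vector none was called. Of 33 other hydrolases 7 rose and 1 fell, led by the ceramidase gene Asah1 (log2 fold change 0.81, adjusted p = 0.000862, edgeR), with Hgsnat, whose enzyme acetylates heparan sulfate (0.66), and the carboxypeptidase gene Scpep1 (0.72). Asah1 stood at 42.8 ± 8.05 CPM (SD, n = 4) in control vector, below the 75.2 ± 7.48 CPM (SD, n = 4) of Htt-72Q.

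Of 18 other membrane proteins, 3 were higher and 2 lower against control vector. Beside this and each count below, 9.44% of all genes were called higher and 13.7% lower. Differences of these lists from all genes were not tested. Ostm1 rose by 0.88 on the log2 scale, from 53.3 ± 4.44 CPM in control vector to 97.8 ± 12.1 CPM in Htt-72Q, while Clcn7, whose chloride transporter needs OSTM1 as its partner, fell from 61.9 ± 5.78 to 39.5 ± 3.05 CPM (log2 fold change -0.65; SD, n = 4 each). The membrane protein gene Tmem192 had 0.78. Among 14 other pump subunits none rose and Atp6v0e2 fell (-0.38). Among 23 other core autophagy genes none rose and Ambra1 (-0.42) and Ulk2 (-0.32) fell. In these lists 7.14% and 8.70% were called, against 23.2% of all genes. Of 9 other cargo receptors and their kinase, Tbk1 (0.42) and Tax1bp1 (0.35) rose. Among regulators of mTORC1 and TFEB, Flcn (0.77) and its partner Fnip1 (0.46) rose and Rragd (-0.51) fell, of 15. Of 13 genes for fusion with the lysosome, Tecpr1 (-0.60) and Vps16 (-0.70) fell and Vps18 (0.50) rose.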

How the data were processed

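RNA from 12 libraries, 4 for each of 3 lentiviral groups, was sequenced by the submitters. The deposited values are counts per gene made by the authors, with CPM and RPKM computed by them from those counts (both recomputed here from the deposited counts and found equal). STAR 2.0.4b, Subread, featureCounts 1.45 and GRCm38 are named per the submitters' processing notes; the sources used here do not give the strand setting or annotation release. Whether libraries came from separate cultures is not stated, so p-values measure the spread between these libraries. The 38 members and all gene lists were chosen with earlier results of these data known.

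Counts were scaled by TMM and tested over all genes with edgeR 4.0.16 (quasi-likelihood, R 4.3.3) in 1 fit of the 3 groups, with 9 residual degrees of freedom. The filter was filterByExpr with a minimum count of 10, which kept 14707 genes, and p-values were adjusted by Benjamini-Hochberg over those genes. Levels between genes use the deposited RPKM. Depth ran from 12.4 M to 27.5 M counts. Same-numbered control vector and Htt-72Q libraries deviated together (r from 0.22 to 0.46 in 4 of 4 pairs), as did libraries of the same preparation (10 of 10 pairs above 0.1). Some pairs of unlike preparations did too, with r up to 0.46. Htt-25Q 3 and 4 are of preparations 27_1 and 27, while control vector and Htt-72Q 3 and 4 are of 26 and 27_1. The replicate block therefore joins these Htt-25Q libraries to other preparations. The preparation block gives Htt-25Q 4, the only library of preparation 27, a term of its own. Comparisons with Htt-25Q under that block rest on the other Htt-25Q libraries. Members named in full are those called in either Htt-72Q comparison plus the most abundant per role; other pathway genes named are the 3 with the smallest p of those called in each list. Alternatives were other scalings, no filter, DESeq2 1.42.0, blocks for replicate number and preparation, a library-class term, 2 groups only, a stricter threshold and leaving out each library. Promoter windows came from RefSeq.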

Additional observations from a re-analysis of the deposited data

Results flagged for a closer look

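Among 114 sets of 4 libraries (38 members in 3 groups), 7 held a library far from the other 3 by Dixon's test, where chance gives about 1 in 20. Ctsd stood at 481 CPM in control vector 4 (329 to 353 CPM in the other controls), and Ctsz at 10.4 CPM in the same library (5.59 to 6.31 CPM). Mcoln1 stood at 62.5 CPM in control vector 2 (50.3 to 51.6 CPM). In Htt-72Q, Atp6v1a stood at 1065 CPM in library 1 (1168 to 1177 CPM), Tfeb at 7.33 CPM in library 3 (2.27 to 2.73 CPM) and Atg7 at 27.3 CPM in library 3 (34.7 to 35.8 CPM). Map1lc3a stood at 176 CPM in Htt-25Q 1 (209 to 215 CPM).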

How the results depend on the processing

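Against control vector, 7 of the 13 member calls (Ctsd, Ctsl, Lamp2, Atp6v1a, Sqstm1, Gabarapl2 and Wipi2) held in all 20 alternatives, and 8 of 13 against Htt-25Q (these and Mcoln1). No called value changed sign in them. These 20 do not include the stricter threshold of 0.01, at which Mcoln1 was called in neither comparison. At an adjusted p under 0.01, 1885 genes and 7 members were called against control vector and 1763 genes and 7 members against Htt-25Q. Leaving out 1 library gave 2671 to 3265 genes and 8 to 13 members against control vector, 2293 to 3902 genes and 8 to 15 members against Htt-25Q, and 0 in Htt-25Q against control vector. With the replicate number as a block, 3807 genes and 14 members were called against control vector (the pairing added Atp6v1h), 3739 and 15 against Htt-25Q, and 0 for Htt-25Q against control vector; with the preparation as a block 4490 and 17, 3120 and 12, and 0. DESeq2 called 16 and 14 members (3993 and 3909 genes), no filter 12 and 9 (3266 and 3080 genes), and 2 groups alone 10 and 14 (2595 and 3458 genes). The main fit called 3411 and 3308 genes. The cause of these shifts was not tested. Tfeb, at 30 to 93 counts per library, is the member with the least depth.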
